A study of Mus musculus with 6 samples.

Results

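The peroxisome proliferator-activated receptor gamma (PPAR-gamma, gene *Pparg*) and 9 genes that work with it or under it were examined in resting bone-marrow-derived macrophages (BMDMs). They are the related receptor gene *Ppard*, the partner receptor gene *Rxra*, the coactivator gene *Ppargc1b*, and the lipid genes *Cd36*, *Fabp4*, *Fabp5*, *Plin2*, *Angptl4* and *Pdk4*. These 10 genes were chosen by name from the 22248 genes of the deposited expression matrix, and each of them is listed there. The RNAseq data comprise 3 control libraries from BMDMs of *Lyz2cre* mice and 3 libraries from BMDMs of *Lyz2cre* mice that also carried *Cited2* Fl/Fl, all of strain C57BL/6 and labelled as postnatal week 10, although the study's methods give a younger age for the bone marrow donors. Both groups thus carry Cre recombinase under the *Lyz2* gene, which is active in myeloid cells, and in the second group it removes the floxed part of *Cited2*. The second group is called CITED2-deficient below, and no stimulus was given to either group.

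CITED2 is a transcriptional coregulator that binds the coactivators CBP and p300, and it has been described as a coregulator of PPAR proteins. PPAR proteins are nuclear receptors that bind fatty acids and their derivatives, pair with a retinoid X receptor (RXR), and activate genes for the uptake, binding, storage and oxidation of lipids. In macrophages PPAR-gamma is known for lipid handling and for its link to alternative activation, the state induced by interleukin-4.

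RNA levels are given as FPKM, the fragments per kilobase of transcript scaled to library size, which allows levels of different genes to be compared per length. Fold changes and p-values come from limma on log2(FPKM + 1) over the 11687 genes with a mean of at least 1 FPKM, a scale that understates the change of weakly expressed genes, with Benjamini-Hochberg adjustment over all of these genes and a threshold of 0.05. The recovered depth was 17289285 to 18952077 fragments in control libraries and 22583995 to 26100411 in CITED2-deficient libraries. *Cited2* itself (ENSMUSG00000039910) checked the genotype, at 71.7, 79.3 and 75.5 FPKM in the control libraries against 9.27, 7.22 and 7.53 FPKM in the CITED2-deficient ones, so some transcript remained. The macrophage markers summed to 5624 to 5694 FPKM in control and 5287 to 5367 FPKM in CITED2-deficient libraries, with *Adgre1* (F4/80) the highest of the 8. Of these, 1 was higher, 5 were lower and 2 did not pass, beside 16.7% higher and 34.6% lower of all tested genes. *Lyz2*, which carries Cre and is among these 8 markers, was at 30.6 to 32.5 FPKM in control and 9.39 to 10.0 FPKM in CITED2-deficient libraries. The study's methods describe a single Cre allele in both genotypes, and the cause of this difference in *Lyz2* was not tested. Nothing in the labels says that replicates came from separate cultures, although the design text gives 3 mice per genotype, so p-values measure the spread between these libraries. In bulk RNA, fewer cells that express a gene and less RNA per cell cannot be told apart.

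All 10 genes passed the filter on low values. In CITED2-deficient BMDMs 6 of them were higher past the threshold (*Pparg*, *Fabp4*, *Fabp5*, *Plin2*, *Angptl4* and *Pdk4*), 3 were lower (*Ppard*, *Rxra* and *Cd36*) and *Ppargc1b* did not pass. Among all tested genes 51.3% passed in either direction, 16.7% higher and 34.6% lower. The median log2 fold change of the 10 genes was 0.37, against -0.10 for all tested genes. For the 9 genes that passed, the control and CITED2-deficient libraries did not overlap, with 6 genes higher and 3 lower. Such separation was seen in 19.0% of all tested genes for higher and in 40.9% for lower values. A fold change of at least 2 on this scale was reached by *Pdk4* alone, as a rise. Among all tested genes 3.72% were higher and 1.54% lower past both limits. Since more genes fell than rose, each library was also divided by the median of its ratios to the gene-wise geometric means, which brought the median of all tested genes to -0.0069. After this median-ratio scaling 44.4% of all tested genes passed, 23.1% higher and 21.3% lower, and the 10 genes gave the same 6 rises and 3 falls.

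**Figure D1:**
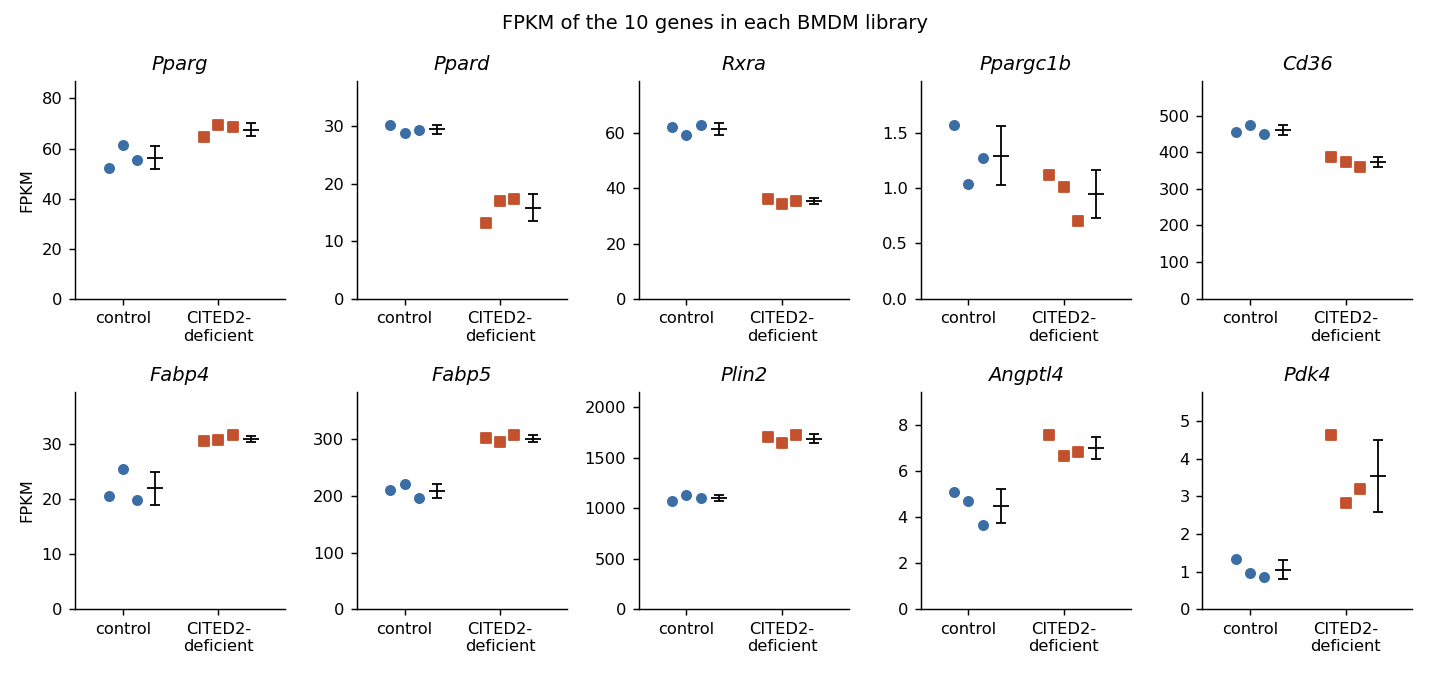
FPKM (vertical axis of each panel, starting at 0) of the 10 genes in each control library (circles) and each CITED2-deficient library (squares), with the group mean and SD (n = 3) at the right of each group. The groups are separate in every panel except that of *Ppargc1b*, with squares above circles for *Pparg*, *Fabp4*, *Fabp5*, *Plin2*, *Angptl4* and *Pdk4* and below them for *Ppard*, *Rxra* and *Cd36*.

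The receptors moved in different directions. *Pparg* (ENSMUSG00000000440, chromosome 6, 115360951 to 115490399 in mm10, plus strand) had 52.3, 61.4 and 55.5 FPKM in the control libraries (replicates 1, 2 and 3, the order used throughout) and 64.5, 69.6 and 68.6 FPKM in the CITED2-deficient libraries. Every CITED2-deficient library was above every control library, although the gap between the highest control and the lowest CITED2-deficient library was narrow. The mean went from 56.4 ± 4.61 to 67.6 ± 2.70 FPKM (SD, n = 3 each), which limma fitted as 0.26 on the log2 scale with an SE of 0.059 (adjusted p = 0.00535). With any single library left out the rise was 0.21 to 0.32 and still passed.

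*Ppard* (ENSMUSG00000002250, chromosome 17, 28232700 to 28301474, plus strand) encodes PPAR-delta, the receptor of the family that most tissues express. Its values were 30.3, 28.7 and 29.2 FPKM in control replicates and 13.2, 17.0 and 17.3 FPKM in CITED2-deficient replicates. The control libraries lay close together, and the CITED2-deficient libraries were all well below them, replicate 1 being the lowest. The mean fell from 29.4 ± 0.770 to 15.8 ± 2.27 FPKM (SD, n = 3 each), 1.86-fold lower in CITED2-deficient BMDMs (limma log2 fold change -0.86 with SE 0.090 and adjusted p = 5.46e-05). Among the 11687 tested genes this was the fall of rank 274.

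*Rxra* (ENSMUSG00000015846, chromosome 2, 27676440 to 27762957, plus strand) encodes RXR-alpha, with which PPAR proteins bind DNA. It had 62.3, 59.2 and 63.1 FPKM in control replicates and 36.3, 34.2 and 35.5 FPKM in CITED2-deficient replicates. Both groups were tight and far apart. The mean fell from 61.5 ± 2.08 to 35.3 ± 1.04 FPKM (SD, n = 3 each; limma log2 fold change -0.78 with SE 0.041 and adjusted p = 5.88e-07). The other RXR gene found in these cells, *Rxrb*, fell less, from 54.1 ± 2.55 to 43.9 ± 1.32 FPKM (SD, n = 3 each; limma log2 fold change -0.29 and adjusted p = 0.000587).

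*Ppargc1b* (ENSMUSG00000033871, chromosome 18, 61298136 to 61400431, minus strand) encodes a coactivator of nuclear receptors that is known for its role in mitochondrial gene expression. It was weakly expressed, with 1.58, 1.04 and 1.27 FPKM in control replicates and 1.12, 1.01 and 0.704 FPKM in CITED2-deficient replicates, and it passed the filter through its control values, since the CITED2-deficient mean was 0.947 FPKM. The groups overlapped. These values rest on 73, 44 and 59 fragments against 70, 56 and 45. The log2 fold change was -0.24 with a 95% interval of -0.59 to 0.11 (adjusted p = 0.231 from limma), so a difference was not detectable at this depth. Its relative *Ppargc1a*, the better known mitochondrial coactivator, had 0, 3 and 1 fragments in control and 6, 2 and 1 in CITED2-deficient libraries. *Ppara*, which encodes the third PPAR protein, had 0 fragments in each control library and 2, 0 and 1 in CITED2-deficient libraries.

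Within a library the ratio of related genes does not depend on the scaling between libraries. The ratio of *Pparg* to *Ppard* was 1.73, 2.13 and 1.90 in control replicates and 4.88, 4.08 and 3.98 in CITED2-deficient replicates. The groups did not overlap, and the mean ratio went from 1.92 ± 0.204 to 4.31 ± 0.492 (SD, n = 3 each), a log2 difference of 1.17. The ratio of *Rxra* to *Rxrb* was above 1 in every control library and below 1 in every CITED2-deficient library, with means of 1.14 ± 0.0907 and 0.805 ± 0.0461 (SD, n = 3 each; log2 difference -0.50). Two-sided exact permutation tests gave p = 0.1 for each of these ratios, the smallest that 3 against 3 libraries allow, and 0.15 after Benjamini-Hochberg adjustment over the 3 ratios computed. The sum of *Pparg* and *Ppard*, chosen after the values were seen, was 85.8 ± 3.90 FPKM in control and 83.4 ± 4.94 FPKM in CITED2-deficient BMDMs (SD, n = 3 each; exact permutation p = 0.6). The sum of *Rxra* and *Rxrb*, chosen in the same way, was 116 ± 0.537 and 79.2 ± 0.791 FPKM (SD, n = 3 each, exact permutation p = 0.1). Each CITED2-deficient library was below each control library. Unlike the ratios, these sums depend on the scaling between libraries.

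**Figure D2:**
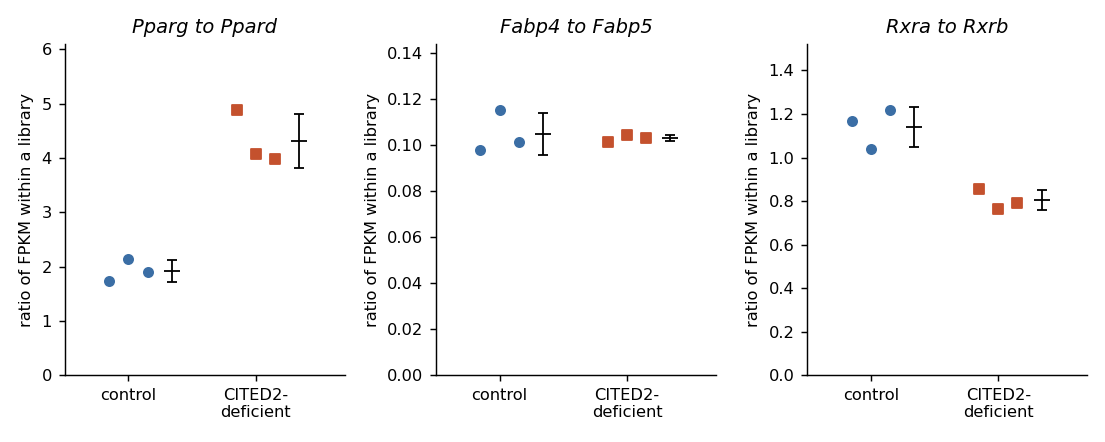
Ratio of FPKM of 2 related genes within each library (vertical axis, starting at 0), with circles for control and squares for CITED2-deficient libraries and the mean and SD (n = 3) beside them. *Pparg* to *Ppard* is 1.73 to 2.13 in control and 3.98 to 4.88 in CITED2-deficient libraries, *Rxra* to *Rxrb* falls below 1, and *Fabp4* to *Fabp5* overlaps between the groups.

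PPAR and RXR pairs bind direct repeats of the half-site AGGTCA with a spacer of 1 base, AGGTCANAGGTCA. Both motifs were searched on both strands in windows of 300 bases, 250 before and 50 after the start site of each RefSeq transcript start (GRCm38.p6, the assembly of mm10). Windows were found for 6 of the 10 genes (*Pparg*, *Ppard*, *Rxra*, *Cd36*, *Plin2* and *Pdk4*), 9 windows in all. The half-site, which also forms each arm of the direct repeat, was present in 5 of these 9 windows, belonging to *Pparg*, *Rxra*, *Plin2* and *Cd36*, and in 16.3% of all 32851 windows. The direct repeat was in 0 of the 9 windows and in 0.0396% of all windows. The windows of *Plin2* and *Cd36* are shown because each holds a half-site at a similar distance from the start, while the transcript of *Plin2* was higher and that of *Cd36* lower in CITED2-deficient BMDMs. In the sequences, read 5′ to 3′ on the strand of the gene, capitals mark the half-site, which reads as its reverse complement TGACCT. With the start site counted as 0, it begins at -218 in *Plin2* (chr4:86670010-86670309, minus strand) and at -228 in *Cd36* (chr5:17835847-17836146, minus strand).
Plin2: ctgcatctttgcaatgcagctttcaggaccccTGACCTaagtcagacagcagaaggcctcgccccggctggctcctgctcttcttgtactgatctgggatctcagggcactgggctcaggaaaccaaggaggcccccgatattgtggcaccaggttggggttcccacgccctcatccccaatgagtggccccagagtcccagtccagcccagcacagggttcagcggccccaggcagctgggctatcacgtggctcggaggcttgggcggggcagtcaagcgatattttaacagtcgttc
Cd36: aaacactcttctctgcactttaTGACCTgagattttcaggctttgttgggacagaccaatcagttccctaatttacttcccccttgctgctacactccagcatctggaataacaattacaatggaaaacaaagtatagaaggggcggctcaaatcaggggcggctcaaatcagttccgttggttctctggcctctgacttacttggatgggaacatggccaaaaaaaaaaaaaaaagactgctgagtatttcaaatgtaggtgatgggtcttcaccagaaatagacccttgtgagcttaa

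*Cd36* (ENSMUSG00000002944, chromosome 5, 17781690 to 17888801, minus strand) encodes a scavenger receptor that takes up oxidized lipoproteins and fatty acids. It had 456, 476 and 449 FPKM in control replicates and 388, 373 and 359 FPKM in CITED2-deficient replicates. Every CITED2-deficient library was below every control library. The mean fell from 460 ± 13.9 to 373 ± 14.5 FPKM (SD, n = 3 each; limma log2 fold change -0.30 with SE 0.036 and adjusted p = 0.000123). After median-ratio scaling the fall was -0.20 and still passed. *Cd36* was the only gene that fell among the 6 lipid genes.

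The genes of the 2 fatty acid binding proteins rose by nearly the same factor. *Fabp4* (ENSMUSG00000062515, chromosome 3, 10204088 to 10208576, minus strand) encodes the binding protein of adipocytes and macrophages and had 20.5, 25.4 and 19.9 FPKM in control replicates and 30.5, 30.8 and 31.6 FPKM in CITED2-deficient replicates. Control replicate 2 was the highest control, and it was still below the CITED2-deficient libraries, which were nearly equal. The mean rose from 22.0 ± 3.01 to 31.0 ± 0.565 FPKM (SD, n = 3 each; limma log2 fold change 0.49 with SE 0.082 and adjusted p = 0.00105).

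*Fabp5* (ENSMUSG00000027533, chromosome 3, 10012548 to 10016607, plus strand) encodes the epidermal binding protein and lies 187 kb from *Fabp4*. Its values were 209, 221 and 197 FPKM in control replicates and 301, 295 and 306 FPKM in CITED2-deficient replicates, again without overlap. The mean rose from 209 ± 12.1 to 301 ± 5.78 FPKM (SD, n = 3 each; limma log2 fold change 0.52 with SE 0.042 and adjusted p = 9.02e-06). Of the 50-base stretches of *Fabp5* transcripts 5.48% occur in 5 other genes, so fragments could have been shared with these copies. The ratio of *Fabp4* to *Fabp5* was 0.105 ± 0.00905 in control and 0.103 ± 0.00145 in CITED2-deficient libraries (SD, n = 3 each). The libraries overlapped, with a log2 difference of -0.022 (two-sided exact permutation p = 1).

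*Plin2* (ENSMUSG00000028494, chromosome 4, 86648386 to 86670060, minus strand) encodes perilipin 2, which coats lipid droplets in macrophages. It was the most abundant of the 10 transcripts, at rank 55 of all tested genes in control BMDMs. It had 1074, 1132 and 1098 FPKM in control replicates and 1705, 1645 and 1723 FPKM in CITED2-deficient replicates. The groups were far apart compared with their spread. The mean rose from 1101 ± 28.8 to 1691 ± 41.0 FPKM (SD, n = 3 each), 1.54-fold (limma log2 fold change 0.62 with SE 0.030 and adjusted p = 3.21e-07), and it was 0.60 to 0.64 with any single library left out. *Plin2* shares 2.57% of its 50-base stretches with 1 other gene, *Gm12551*.

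*Angptl4* (ENSMUSG00000002289, chromosome 17, 33773750 to 33781830, minus strand) encodes a secreted inhibitor of lipoprotein lipase. It had 5.09, 4.69 and 3.68 FPKM in control replicates and 7.55, 6.67 and 6.82 FPKM in CITED2-deficient replicates. Levels were low but separate, and the mean rose from 4.49 ± 0.728 to 7.01 ± 0.471 FPKM (SD, n = 3 each; limma log2 fold change 0.55 with SE 0.109 and adjusted p = 0.00252). *Lpl*, whose product it inhibits, fell from 1138 ± 26.3 to 923 ± 33.1 FPKM (SD, n = 3 each; limma log2 fold change -0.30 and adjusted p = 6.48e-05).

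*Pdk4* (ENSMUSG00000019577, chromosome 6, 5483351 to 5496309, minus strand) encodes a kinase that inactivates pyruvate dehydrogenase and so favors fatty acids over glucose as fuel. It was the weakest of the 10 transcripts in control BMDMs, with 1.35, 0.971 and 0.850 FPKM in control replicates and 4.63, 2.83 and 3.19 FPKM in CITED2-deficient replicates. These values rest on 38, 25 and 24 fragments against 175, 95 and 124. CITED2-deficient replicate 1 was the highest, and all 3 were above the controls. The mean rose from 1.06 ± 0.261 to 3.55 ± 0.951 FPKM (SD, n = 3 each), 3.35-fold, with a log2 fold change of 1.13 on the log2(FPKM + 1) scale (limma SE 0.168 and adjusted p = 0.000489). Limma-voom on the recovered fragments, which adds no whole FPKM, gave 1.73. *Pdk4* shares 1.40% of its 50-base stretches with 197 other genes, so some of its fragments could have come from these. The other kinases of this family fell, with log2 fold changes of -0.45 for *Pdk1* (adjusted p = 0.000523), -0.40 for *Pdk2* (adjusted p = 0.0030) and -0.18 for *Pdk3* (adjusted p = 0.0426, all from limma), although *Pdk3* did not pass after median-ratio scaling.

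**Figure D3:**
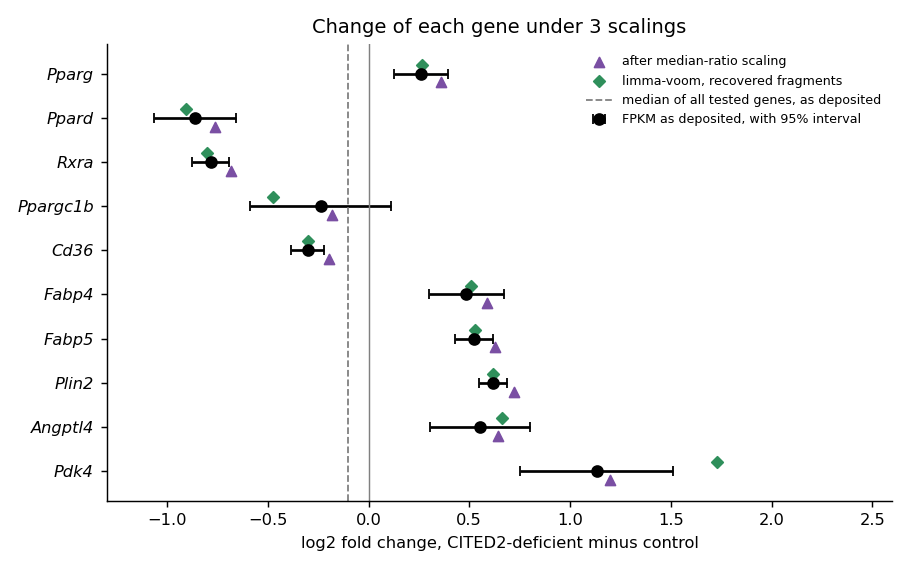
Log2 fold change (horizontal axis, CITED2-deficient minus control) of each gene, with circles and 95% intervals for the FPKM as deposited, triangles after median-ratio scaling and diamonds for limma-voom on recovered fragments. The dashed line is the median of all tested genes (-0.10), and each gene keeps its side of 0 under all of them, from -0.86 for *Ppard* to 1.13 for *Pdk4* with the FPKM as deposited.

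The levels of the 10 genes in control BMDMs ran from 1.06 to 1101 FPKM. *Plin2* (1101 ± 28.8 FPKM) was followed by *Cd36* (460 ± 13.9) and *Fabp5* (209 ± 12.1), and each of these differed from its neighbor by far more than the spread. *Rxra* (61.5 ± 2.08) and *Pparg* (56.4 ± 4.61) came next and were not separated by their spread, since *Pparg* reached 61.4 FPKM in control replicate 2 and *Rxra* was 59.2 there. *Ppard* (29.4 ± 0.770), *Fabp4* (22.0 ± 3.01) and *Angptl4* (4.49 ± 0.728) followed, and *Ppargc1b* (1.30 ± 0.270) and *Pdk4* (1.06 ± 0.261) overlapped at the low end (SD, n = 3 each). In CITED2-deficient BMDMs *Pparg* was above *Rxra* in every library, and *Fabp4* was above *Ppard* in every library. The spread between replicates was widest, relative to the mean, for the weakest transcripts. The coefficient of variation was 24.7% and 26.8% for *Pdk4* and 20.8% and 23.0% for *Ppargc1b* (control and CITED2-deficient), against 2.62% and 2.42% for *Plin2* and a median of 5.41% and 5.56% over all tested genes. *Ppard* stood out among the stronger genes, with 2.62% in control and 14.3% in CITED2-deficient libraries, and *Fabp4* showed the opposite, with 13.7% and 1.82%.

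Some transcripts of other cell types were present and moved between libraries. Of 8 adipocyte markers, 7 were higher in control replicates 1 and 2 than in any other library. *Adipoq* (adiponectin) had 30 and 36 fragments in these and 0 in control replicate 3, against 0, 0 and 2 in CITED2-deficient replicates. *Cfd* (adipsin) had 67, 100 and 2 fragments in control and 1, 1 and 0 in CITED2-deficient libraries. The whole list summed to 12.5 to 24.8 FPKM in control and 15.4 to 16.7 FPKM in CITED2-deficient libraries, mostly from *Lipe*, which macrophages also express. Adipocytes express *Pparg*, *Fabp4*, *Cd36* and *Angptl4* strongly. Without both of these control libraries, a choice made after the data had been seen, the log2 fold change was 0.61 for *Fabp4*, 0.28 for *Pparg*, -0.27 for *Cd36*, 0.77 for *Angptl4* and 1.28 for *Pdk4*, and all 9 calls were kept. That fit assumes that the lone control library varies like the others.

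**Figure D4:**
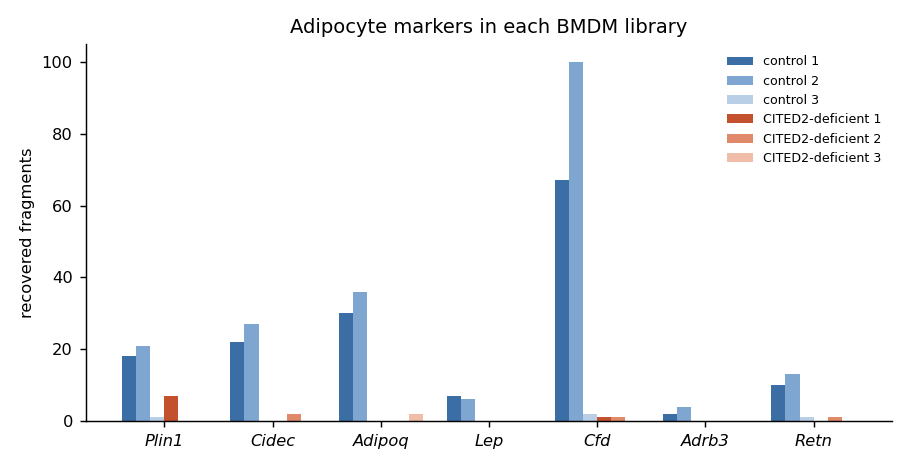
Recovered fragments (vertical axis, starting at 0) of 7 adipocyte markers in each of the 6 libraries. Control replicates 1 and 2 hold nearly all of them, with 67 and 100 fragments of *Cfd* and 30 and 36 of *Adipoq*.

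The 8 endothelial markers summed to 13.1 to 15.3 FPKM in control and 39.3 to 43.8 FPKM in CITED2-deficient libraries. Most of the difference was in *Kdr*, which went from 4.26 ± 0.349 to 27.5 ± 3.22 FPKM, while *Cdh5* went from 0.720 ± 0.270 to 1.52 ± 0.0797 FPKM (SD, n = 3 each) and *Pecam1* did not pass the threshold (adjusted p = 0.127 from limma). *Cdh5* passed the filter on low values only through its CITED2-deficient libraries, so its difference is not support for a rise. The 8 fibroblast or stromal markers summed to 42.4 to 50.6 FPKM in control libraries and to 540, 170 and 171 FPKM in the CITED2-deficient libraries, with *Col1a1* the highest. All 6 tested markers of this list were higher past the threshold (median log2 fold change 1.39), beside 16.7% of all tested genes. Without CITED2-deficient replicate 1, which stands apart in these, the log2 fold change was 0.97 for *Pdk4*, -0.74 for *Ppard* and 0.29 for *Pparg*, and all 9 calls were kept. The erythroid and megakaryocyte list (6 listed) summed to 314 to 343 FPKM in control and 78.4 to 89.2 FPKM in CITED2-deficient libraries, nearly all *Pf4* (log2 fold change -2.07), while the other tested markers, *Ppbp* (0.69) and *Itga2b* (0.38), were higher past the threshold. The granulocyte precursor list gave 740 to 810 and 661 to 779 FPKM with *S100a9* the highest. However, 6 of its 8 markers were lower and 1 higher past the threshold, beside 34.6% lower and 16.7% higher of all tested genes. The median log2 fold change of the list was -0.70, with *Mpo* at -2.54. The dendritic cell list (7 listed) gave 17.2 to 20.4 and 23.5 to 27.4 FPKM with *Itgax* the highest. No listed marker was at 0 in all 6 libraries. The part of these cell types in the results was not tested.

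Other genes of the pathway were read from 5 lists. Their counts stand beside 16.7% higher and 34.6% lower of all tested genes, or 23.1% higher and 21.3% lower after median-ratio scaling. The list of other receptors, coregulators and partner factors had 22 genes, of which 19 were tested, and 7 were higher, 7 lower and 5 did not pass (median log2 fold change 0.032). After median-ratio scaling 10 were higher and 5 lower. Among the largest rises were those of *Nr1h3* (0.74), which encodes the oxysterol receptor LXR-alpha, and of *Med1* (0.36), which encodes the Mediator subunit that binds PPAR-gamma. *Nr1h3* went from 11.7 ± 0.447 to 20.3 ± 2.37 FPKM (SD, n = 3 each; adjusted p = 6.32e-05 from limma). The largest falls were in *Cebpd* (-1.01), *Cebpa* (-0.33) and *Rxrb*, of which the C/EBP genes encode factors that act with PPAR-gamma in adipocyte differentiation. *Cebpd* went from 15.3 ± 1.65 to 7.07 ± 0.702 FPKM (SD, n = 3 each; adjusted p = 2.36e-05 from limma). *Ppara*, *Rxrg* and *Ppargc1a* were below the filter.

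In the list of fatty acid uptake and binding 9 of 15 genes were tested, and 2 were higher, 5 lower and 2 did not pass (median -0.15, with 3 higher and 2 lower after median-ratio scaling). The rises were those of the acyl-CoA synthetase genes *Acsl5* (0.30) and *Acsl1* (0.22), and the largest falls were in *Acsl3* (-0.40), *Lpl* and *Dbi* (-0.18), the last of which did not pass after median-ratio scaling. Among the 4 genes below the filter, *Fabp7* had 1, 3 and 5 fragments in control and 30, 21 and 32 in CITED2-deficient libraries, and *Vldlr* had 17, 17 and 13 against 121, 72 and 60. In both of these untested genes the groups did not overlap, while they did in the others below the filter, *Olr1* and *Fabp12*. Among all tested genes such separation as higher was seen in 19.0%, a share that does not cover genes below the filter.

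In the list of lipid droplets and lipolysis 10 of 17 genes were tested, and 3 were higher, 2 lower and 5 did not pass (median 0.024, with 5 higher and 1 lower after median-ratio scaling). *Dgat2*, which encodes an enzyme of the last step of triglyceride synthesis, rose from 2.61 ± 0.675 to 19.1 ± 1.48 FPKM (SD, n = 3 each; limma log2 fold change 2.49 and adjusted p = 4.15e-07). *Dgat1*, whose enzyme catalyzes the same step, went from 29.5 ± 0.945 to 25.7 ± 2.74 FPKM (SD, n = 3 each; limma log2 fold change -0.19 and adjusted p = 0.0489), and this call was lost after median-ratio scaling. The other rises were in the lipase genes *Lipe* (0.26) and *Lipa* (0.079), the latter lost after quantile normalization. *Mgll*, the monoglyceride lipase gene, fell from 13.1 ± 0.344 to 6.76 ± 0.351 FPKM (SD, n = 3 each; limma log2 fold change -0.86 and adjusted p = 5.53e-06). The gene of the main triglyceride lipase, *Pnpla2*, did not pass (-0.012, adjusted p = 0.772 from limma).

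Of 23 genes in the list of fatty acid oxidation, 20 were tested, and 2 were higher, 12 lower and 6 did not pass (median -0.24, with 3 higher and 10 lower after median-ratio scaling). The rises were in *Ucp2* (0.25), which encodes a mitochondrial carrier, and *Slc25a20* (0.22), the carnitine-acylcarnitine carrier. The largest falls were in *Etfb* (-1.27), *Acot2* (-0.77) and *Pdk1*. *Etfb* had 7.08, 11.4 and 9.73 FPKM in control and 6.40, 2.64 and 1.87 FPKM in CITED2-deficient libraries, the last 2 far below the others. *Acot1*, below the filter, had 26, 30 and 34 fragments against 5, 6 and 0.

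In the list of alternative activation genes linked to PPAR-gamma 8 of 10 genes were tested, and 0 were higher, 7 lower and 1 (*Tgm2*, 0.099) did not pass in limma. The count of higher genes was also 0 at an unadjusted p under 0.05 and in limma-voom on the recovered fragments. After median-ratio scaling 1 was higher and 6 were lower. The median was -0.63, the lowest of the 5 lists. The falls were led by the lectin genes *Clec10a* (-2.90), *Mrc1* (-1.76) and *Mgl2* (-1.62). *Mgl2* had 81, 56 and 50 fragments in control and 11, 9 and 5 in CITED2-deficient libraries, and it passed the filter only through its control values, so its call is not support for a fall. *Mrc1*, the mannose receptor gene, had 352, 350 and 358 FPKM in control and 98.9, 110.1 and 102.8 FPKM in CITED2-deficient libraries, and the groups were far apart (adjusted p = 2.19e-09 from limma). *Arg1*, below the filter, had 30, 23 and 23 fragments in control and 10, 3 and 7 in CITED2-deficient libraries.

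**Figure D5:**
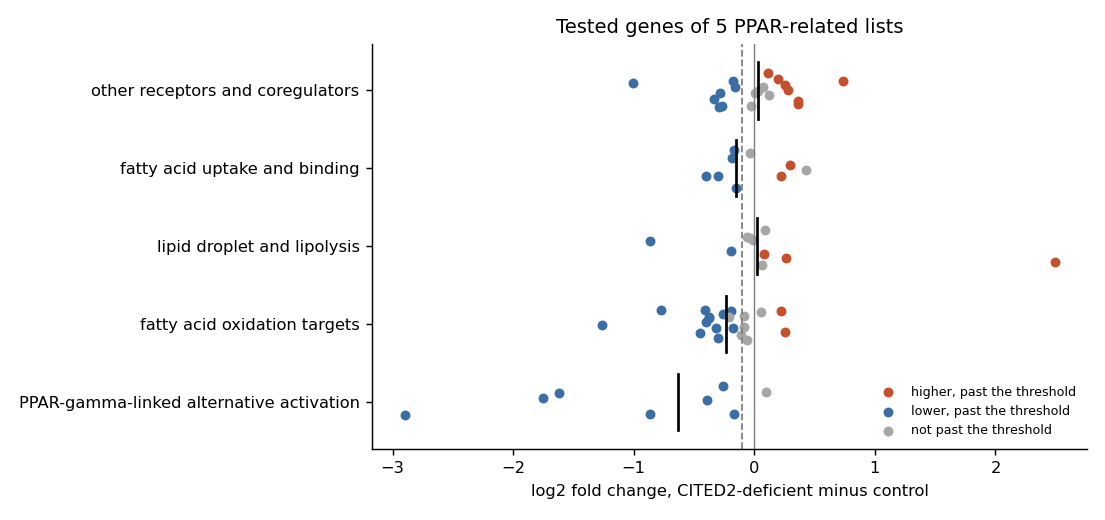
Log2 fold change (horizontal axis, CITED2-deficient minus control) of each tested gene of the 5 lists, spread vertically for clarity, with red for higher and blue for lower past the threshold and gray for not past it. Black bars are list medians (0.032, -0.15, 0.024, -0.24 and -0.63 from top to bottom), and the dashed line is the median of all tested genes (-0.10).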

How the data were processed

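RNAseq of resting BMDMs was analyzed in 6 libraries. The authors removed ribosomal RNA, made stranded libraries, mapped reads to mm10 with STAR and deposited FPKM per gene and library from Cuffdiff with GENCODE annotation (versions: not given in the sources used here). Matrix columns are headed LysM (the protein of *Lyz2*) and MRG (an older name of *Cited2*) and carry the replicate numbers of the labels. The test was limma-trend (limma 3.58.1, R 4.3.3) on log2(FPKM + 1). Cuffdiff needs alignments and was not repeated. Fragments were recovered with mean transcript lengths of GENCODE vM21, and 96.1% of 22239 matched genes were within 0.02 of whole numbers in all libraries (*Angptl4* was not). Coordinates are from that annotation and promoters from RefSeq. All 10 genes were reported, and of each list up to 3 rises and 3 falls, *Ppara*, *Rxrb* and *Ppargc1a*, and of each marker list the highest marker and those at 0. *Fabp7*, *Vldlr*, *Acot1*, *Arg1*, *Pdk2*, *Pdk3*, *Pnpla2* and markers other than the highest were named after their values were seen. A gene that this rule names is not reported here. The genes and lists were chosen with earlier results of these data known. Alternatives were other pseudocounts (0.1, 0.5), filters, scalings and fits, a fold threshold and each library left out. The steps were tested on simulated data.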

Additional observations from a re-analysis of the deposited data

How the results depend on the processing

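The 9 calls among the 10 genes, and the missing call of *Ppargc1b*, held under pseudocounts of 0.1 and 0.5, no filter, a mean of at least 5 FPKM (where a gene was tested), both scalings, no variance trend, limma-voom and each library left out. With a fold change of at least 2 the count was 1, and the fits of *Pparg* (0.26), *Ppard* (-0.86), *Rxra* (-0.78), *Cd36* (-0.30), *Fabp4* (0.49), *Fabp5* (0.52), *Plin2* (0.62) and *Angptl4* (0.55) then fell short of the limit. The same limit left 615 of all tested genes (70.7% of them higher) and 6 list genes in all, with 1 of receptors and coregulators, 0 of uptake and binding, 1 of droplets and lipolysis, 1 of oxidation and 3 of alternative activation. Median-ratio scaling moved the share of called genes that were higher from 32.5% to 52.0%. The droplet list gave 3 calls with no filter, without the variance trend and with the replicate block, and 3 to 5 with 1 library left out. Leaving out both control libraries with adipocyte transcripts, chosen after seeing the data, gave 3782 genes, 31 list genes, 8 receptors and coregulators and 3 droplet genes, from fewer samples. The log2 difference of the *Fabp4* to *Fabp5* ratio was -0.068 to 0.048 with 1 library left out, the highest value and a change of sign coming without control replicate 2.

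A pairing of the libraries by replicate number was not evident. Same-numbered deviations had correlations of 0.0138, 0.0078 and 0.0402, and not every library had its highest correlation with its own number. With 3 libraries per group this check cannot exclude a pairing. With the replicate block 5708 genes passed against 5994, and 9 of the 10 genes did. Depth limits *Pdk4* and *Ppargc1b* most, whose values rest on 24 to 175 and 44 to 73 fragments.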

Other observations

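Beyond the PPAR genes, the nuclear receptor superfamily was read from a list written after values had been seen, so its counts support nothing further. The list holds *Pparg*, *Ppard*, *Rxra* and *Rxrb* again. Of 49 genes 21 were tested, and 3 were higher (*Pparg*, *Nr1h3* and *Vdr*), 13 lower and 5 did not pass in limma. After median-ratio scaling 3 were higher and 10 lower. These counts stand beside 16.7% higher and 34.6% lower of all tested genes, or 23.1% and 21.3% after that scaling. *Vdr* passed the filter only through its CITED2-deficient values, with 16, 7 and 24 fragments in control and 57, 51 and 42 in CITED2-deficient libraries, so its call is not support for a rise. The largest fall was in *Nr4a1*, an immediate early gene of the NUR77 family, from 5.50 ± 0.385 to 1.89 ± 0.123 FPKM (SD, n = 3 each; limma log2 fold change -1.17 and adjusted p = 1.03e-05). *Rara* (-0.65), the retinoic acid receptor alpha gene, *Thra* (-0.48), a thyroid hormone receptor gene, and *Nr1d1* (-0.45), the REV-ERB-alpha gene, also fell.

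In glycerolipid synthesis, a list chosen in the same way, 12 of 16 genes were tested, and 3 were higher, 4 lower and 5 did not pass. After median-ratio scaling 4 were higher and 2 lower. The shares of all tested genes were 16.7% higher and 34.6% lower, or 23.1% and 21.3% after that scaling. *Gpat3*, whose enzyme catalyzes the first acylation of glycerol-3-phosphate, had 31, 35 and 28 fragments in control and 137, 121 and 158 in CITED2-deficient libraries, and it too passed the filter only through the group where it is high. The other higher genes were *Dgat2* and *Agpat4* (0.25). *Gpat4* (mean 37.3 FPKM in control and 38.2 in CITED2-deficient libraries) and *Gpam* (4.03 and 3.33) encode enzymes of the same step as *Gpat3*. Both were more abundant than *Gpat3*, and neither passed with the FPKM as deposited. After median-ratio scaling *Gpat4* was higher past the threshold (0.13, adjusted p = 0.0358 from limma), while *Gpam* did not pass. *Lpin1*, a lipin gene of the step before the last, fell from 17.7 ± 0.607 to 9.15 ± 0.405 FPKM (SD, n = 3 each; limma log2 fold change -0.88 and adjusted p = 2.58e-06). The lipin gene *Lpin2* was far more abundant, with means of 126 FPKM in control and 114 FPKM in CITED2-deficient libraries. Its fall was small (-0.14, adjusted p = 0.023 from limma) and did not pass after median-ratio scaling. *Agpat3* fell by 0.66 on the log2 scale (adjusted p = 5.59e-06 from limma).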
